A study of Mus musculus with 37 samples.

Results

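The olfactory bulb of df/+ mice, which carry 1 copy of the chromosome 7 segment corresponding to human 16p11.2, was set against the bulb of +/+ mice, which carry 2 copies. Samples were chosen by their labelled brain region and copy number, which gave 5 bulb samples of the 31 region samples in the series: 2 from df/+ mice and 3 from +/+ mice. The df/+ mice were heterozygous for an engineered deletion of the segment, and the +/+ mice were its wild type controls. All 8 mice of the series, which also included 3 dp/+ mice heterozygous for the duplication (3 copies), were F1 C57BL/6N:129Sv hybrid males. Their age is not given in the labels used here. Total RNA was hybridised to 37 Affymetrix arrays, and each value below is a log2 intensity of 1 gene, so that a difference of -1 corresponds to 50% of the +/+ level. Each df/+ bulb had 1 array, +/+ bulb 1 had 2 arrays whose values were averaged, +/+ bulb 2 had 1, and +/+ bulb 3 was represented by an array labelled as its second technical one. Neither a hybridisation day nor a scan batch is recorded in the labels.

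The olfactory bulb receives the axons of olfactory sensory neurons, which lie in the nasal epithelium, and passes their input through mitral and tufted cells to the olfactory cortex. Granule and periglomerular cells are its local inhibitory neurons, and newborn neuroblasts enter it throughout life. The 16p11.2 segment holds closely spaced genes of unrelated families, among them kinases, a phosphatase subunit, synaptic proteins and metabolic enzymes. Its loss or gain in people is associated with neurodevelopmental conditions.

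The tissue label was checked against cell markers in the +/+ mice, bulb against the other 3 regions. Of all 19938 genes, 16.2% were higher in +/+ bulb at an adjusted p below 0.05 (limma, Benjamini-Hochberg). The share was 11 of 13 for granule cell markers, 12 of 15 for neuroblast markers, 7 of 14 for mitral and tufted cell markers and 6 of 11 for periglomerular markers. Markers of nasal mucosa were also present, and 14 of the 21 measured were higher in +/+ bulb than in the other regions. When the 8 bulb samples were weighted by how closely they fitted, +/+ bulb 1 received the lowest weight, 0.368. The next lowest was 0.487 for dp/+ bulb 3, which adds to the estimate of spread, and the third was 0.794 for +/+ bulb 3. In bulk tissue, fewer cells of a type and less RNA per cell cannot be told apart, and this holds for every result that follows.

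In the df/+ bulb 16 genes fell and 0 rose of 19938 tested (limma moderated test on the 8 bulb samples with Benjamini-Hochberg adjustment over all genes, threshold 0.05), a share of 0.0802%. Of the 16, 9 lay in the 16p11.2 segment and 7 lay outside it. The 7 outside were 4 genes known from nasal mucosa and 3 small nucleolar RNAs. At an unadjusted p below 0.05, 1004 genes (5.04%) were lower and 544 (2.73%) were higher. The count of 16 moved with single mice: it was 3 without df/+ mouse 1, 1 (Gdpd3) without df/+ mouse 2, 6 without +/+ mouse 2, 46 without +/+ mouse 3 and 8 without dp/+ mouse 2. With 1 df/+ mouse left, that mouse is assumed to vary like the other groups.

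The labels do not give the end points of the deletion, so the segment was taken as a list of 33 genes from Slx1b to Septin1, written from general knowledge of the region. Of these, 30 were measured, and Mapk3, Ino80e and Prrt2 were not. The counts inside and outside the segment and its mean rest on that list, and the mean difference was -0.67 without the end genes. The mean of the 30, relative to the +/+ mean, was -0.67 and -0.66 in the df/+ bulbs, against 0.02, 0.04 and -0.06 in the +/+ bulbs. Both df/+ mice lay well below all 3 +/+ mice, with an SD of 0.0047 between them, against 0.054 among the +/+ mice. The difference of -0.66 on the log2 scale, or 63.1% of the +/+ level, had an exact two-sided permutation p of 0.1, the smallest that the 10 assignments of 2 and 3 mice allow. Both df/+ samples were below every +/+ sample for 26 of the 30 genes, against 14.6% of all genes. Without df/+ mouse 1, df/+ mouse 2, +/+ mouse 2 or dp/+ mouse 2, the count of 9 became 1, 1, 3 and 6 in that order. The 9 that fell reached 7.0% to 57.5% of the +/+ level, with a median of 55.8%. The other 21 spanned 54.1% to 102%, with a median of 75.7%. Of these, 14 were lower at an unadjusted p below 0.05, against 5.04% of all genes. For 14 genes the 95% confidence interval of the difference included 50% of the +/+ level, for 15 it lay wholly above 50%, and for Gdpd3 wholly below. In +/+ bulb the 15 ranged from percentile 8.73 (Zg16) to 99.9 (Aldoa), and dim genes leave little room for a fall to show. The part of brightness in this split was not tested, so it does not tell how many genes fell by less than their copy loss. The 9 that fell were also brighter in +/+ bulb, at a median percentile of 73.6 among all genes, than the other 21, at 55.5.

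**Figure D1:**
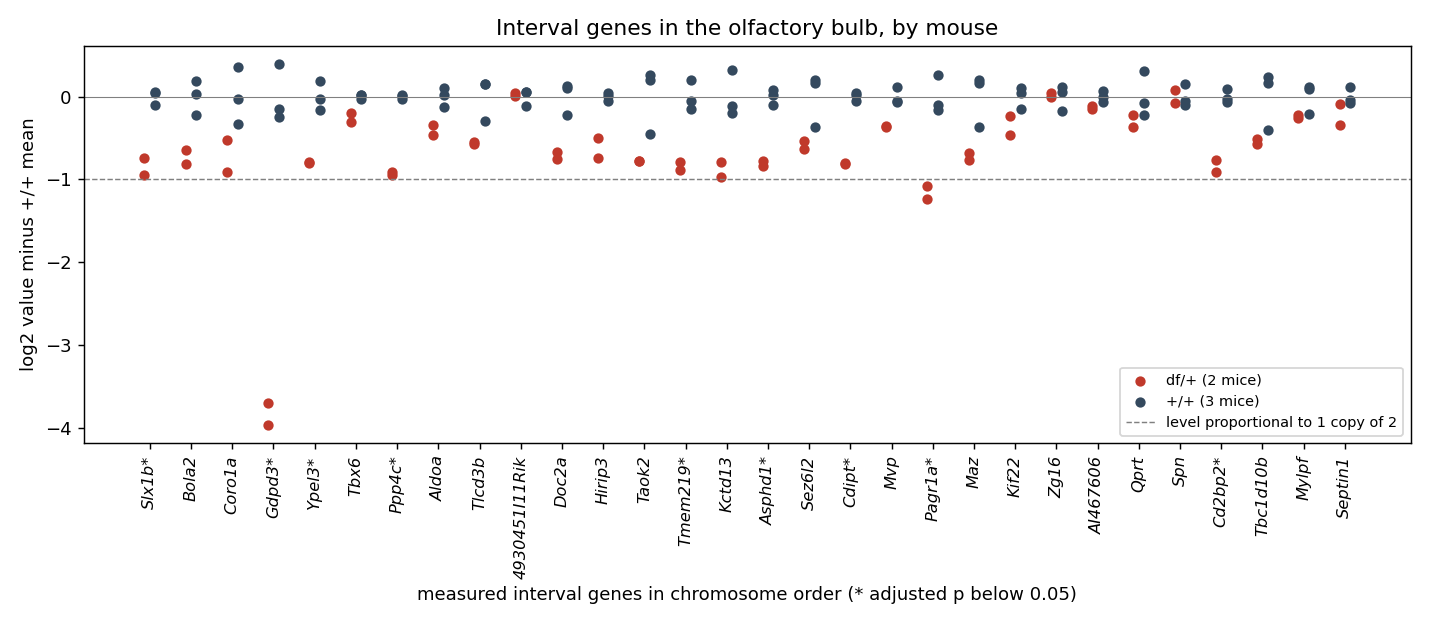
Log2 value of each measured gene of the segment in each bulb minus the mean of the 3 +/+ bulbs (vertical axis), in chromosome order (horizontal axis), with 2 df/+ mice left of 3 +/+ mice. A dashed line marks 50% of the +/+ level, and an asterisk an adjusted p below 0.05. Gdpd3 lies far below the line, most genes lie between the line and 0, and 4930451I11Rik, Zg16 and Spn lie at 0.

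Gdpd3, a glycerophosphodiester phosphodiesterase domain protein with lysophospholipase D activity, showed the widest gap of the segment. Its level was 5.44 and 5.69 in df/+ bulbs, against 9.80, 9.26 and 9.15 in +/+ bulbs. The groups were far apart relative to the spread within either. Gdpd3 fell by 3.84 on the log2 scale (SE 0.17, adjusted p = 4.47e-07), to 7.0% of the +/+ level. Both df/+ values lay below the lower quartile of their own arrays, 5.87 on each. The deposited values give no background level, so the size of this fall is limited by the dim end of the scale and the remaining share of transcript is not known. It was the highest-expressed in bulb of the 4 regions: the +/+ mean was 9.40 in bulb, 8.36 in cerebellum, 8.0 in brain stem and 7.69 in cortex. In df/+ mice the mean was between 5.42 and 5.58 in all 4 regions. The difference between df/+ and +/+ was -2.14 in cortex, -2.78 in cerebellum and -2.58 in brain stem. With df/+ at the same dim level in every region, these differences restate the +/+ levels. In dp/+ bulbs, which share the +/+ controls, Gdpd3 was 9.95, 10.18 and 9.99. The 300 bases around its start, from RefSeq on GRCm38.p6 (chr7:126766164-126766463, plus strand), are printed because no other gene of the segment departed this far from 50%, and hold none of the motifs searched below.
Gdpd3 promoter: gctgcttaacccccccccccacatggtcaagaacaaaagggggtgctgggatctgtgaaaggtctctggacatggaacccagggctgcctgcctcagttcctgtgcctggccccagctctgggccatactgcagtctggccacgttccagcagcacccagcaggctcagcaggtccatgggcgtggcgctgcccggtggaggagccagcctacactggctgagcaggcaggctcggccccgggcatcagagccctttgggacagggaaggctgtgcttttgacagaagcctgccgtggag

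Enzymes and regulators of signalling were among the other genes that fell. Ppp4c, the catalytic subunit of protein phosphatase 4, had levels of 8.47 and 8.44 in df/+ bulbs, against 9.36, 9.42 and 9.40 in +/+ bulbs. Mice of each genotype lay close together, and Ppp4c fell to 52.3% (log2 difference -0.94, SE 0.10, adjusted p = 0.0037). Cdipt, the phosphatidylinositol synthase, had levels of 10.10 and 10.08 in df/+ bulbs, against 10.94, 10.84 and 10.91 in +/+ bulbs. It fell to 57.1% (adjusted p = 0.007), again with the mice of each genotype close together. Taok2, a serine/threonine kinase, had levels of 9.41 and 9.41 in df/+ bulbs, against 9.73, 10.44 and 10.39 in +/+ bulbs. Its df/+ values lay below all +/+ values, but +/+ bulb 1 lay near them, and the difference of -0.78 did not pass (adjusted p = 0.22). Aldoa, the glycolytic aldolase and the brightest gene of the segment, had levels of 12.90 and 12.78 in df/+ bulbs, against 13.26, 13.11 and 13.34 in +/+ bulbs. Its groups did not overlap, but at 75.7% of the +/+ level its interval lay wholly above 50%, and the difference did not pass (adjusted p = 0.35).

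Nuclear proteins of the segment also included genes that fell. Slx1b, a subunit of a structure-specific endonuclease, had levels of 8.26 and 8.05 in df/+ bulbs, against 9.05, 9.04 and 8.89 in +/+ bulbs, and fell to 55.8% (adjusted p = 0.011). Cd2bp2, a protein of the spliceosomal U5 particle, had levels of 7.46 and 7.61 in df/+ bulbs, against 8.35, 8.46 and 8.31 in +/+ bulbs, and fell to 55.9% (adjusted p = 0.011). Pagr1a, which belongs to a histone methyltransferase complex, had levels of 8.67 and 8.83 in df/+ bulbs, against 9.81, 10.17 and 9.75 in +/+ bulbs. It fell to 44.8%, the lowest of the segment after Gdpd3 (adjusted p = 0.027), with an interval that included 50%. Hirip3, which binds a histone chaperone, stood at 64.9% (adjusted p = 0.070), and Maz, a zinc finger transcription factor, at 60.5% (adjusted p = 0.21). Kif22, a mitotic kinesin, and Tbx6, a transcription factor of the embryonic mesoderm, were below the median brightness of all genes and stood at 78.5% and 83.8%.

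The segment's remaining genes that fell have other roles. Asphd1, which holds an aspartyl hydroxylase domain, had levels of 8.75 and 8.81 in df/+ bulbs, against 9.67, 9.61 and 9.48 in +/+ bulbs (57.2%, adjusted p = 0.011). Tmem219, a membrane receptor for an insulin-like growth factor binding protein, had levels of 8.10 and 8.0 in df/+ bulbs, against 9.09, 8.84 and 8.75 in +/+ bulbs (55.8%, adjusted p = 0.026). Ypel3, a small zinc-binding protein of the Yippee family, had levels of 10.64 and 10.66 in df/+ bulbs, against 11.64, 11.43 and 11.29 in +/+ bulbs (57.5%, adjusted p = 0.027). In all of them the groups were separated by a gap wider than the spread of either group.

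Synaptic, neuronal and other genes of the segment had lower values that did not pass. Kctd13, an adaptor of the Cullin-3 ubiquitin ligase, stood at 54.1% (log2 difference -0.89, SE 0.16, adjusted p = 0.083). Doc2a, a calcium sensor of transmitter release, stood at 60.9% (-0.72, SE 0.15, adjusted p = 0.17), and Sez6l2, a neuronal membrane protein, at 66.5% (-0.59, SE 0.15, adjusted p = 0.33). For each of these the df/+ samples lay below all +/+ samples. Bola2, which takes part in iron-sulphur cluster handling, stood at 60.3% (adjusted p = 0.083).

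The other members covered the range up to the +/+ level. Tlcd3b stood at 67.8%, Tbc1d10b, a GTPase-activating protein, at 68.4% and AI467606 at 91.4%. Coro1a, an actin regulator of leukocytes and neurons, was at 60.7% (adjusted p = 0.32), while Spn, the leukocyte surface protein CD43, was at 100.4%. Zg16, a lectin of secretory cells, was at 101.4% and among the dimmest genes of the array, at percentile 8.73 in +/+ bulb. Mylpf, a myosin light chain of fast skeletal muscle, was at 84.6%, Septin1 at 86.1% and Qprt, an enzyme of NAD synthesis, at 81.7%. The uncharacterised transcript 4930451I11Rik was at 101.6% although it was not dim, with levels of 8.33 and 8.36 in df/+ bulbs, against 8.38, 8.38 and 8.21 in +/+ bulbs. The directions of Spn, Zg16 and 4930451I11Rik turned under some alternatives. The major vault protein gene Mvp was at 77.9% (adjusted p = 0.45). Vaultrc5, a vault RNA encoded outside the segment, had levels of 7.15 and 6.89 in df/+ bulbs, against 9.82, 9.18 and 8.19 in +/+ bulbs. Its +/+ mice were widely spread, and its difference of -2.04 did not pass (SE 0.34, adjusted p = 0.056).

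Beyond the ends of the listed segment, the 20 nearest measured genes on each side had 0 calls, against 0.0802% of all genes called. The median difference was -0.03 beyond Slx1b and -0.06 beyond Septin1, against -0.02 over all genes. On each side 2 of the 20 genes were lower at an unadjusted p below 0.05, against 5.04% of all genes. No other measured gene lies between the ends in the RefSeq gene order. Of the products' partners, a list of binding partners and paralogs such as Cul3, Taok1 and the Ypel family, 0 of 28 were called, and the median was 0.11. At an unadjusted p below 0.05, 3 of the 28 were lower, against 5.04% of all genes, and 0 higher. The MAP kinase pathway, in which the unmeasured Mapk3 acts, had 0 calls among 16 measured genes and a median of 0.02. With 0.0802% of all genes called, lists of these sizes would likely hold 0 calls in any case.

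Outside the segment the lower values were led by genes of the nasal mucosa, whose supporting and gland cells make enzymes and secreted proteins that handle odorants. Of the 21 measured, 4 fell, 8 were lower at an unadjusted p below 0.05 (against 5.04% of all genes) and 0 were higher. The list was chosen with earlier results of these data known, so its counts and direction are not independent evidence. Both df/+ samples were below every +/+ sample for 12 of the 21 and above every one for 2, against 14.6% and 10.5% of all genes. The median difference was -0.35 in bulb, against -0.02 over all genes. It was 0.01 in cortex, 0.04 in cerebellum and -0.04 in brain stem, where several of these genes were too dim in +/+ mice for a fall to show. The summed linear intensity of the list was 1617 and 1433 in df/+ bulbs, against 2747, 2981 and 2092 in +/+ bulbs. Every df/+ sum lay below every +/+ sum. With df/+ mouse 1 or dp/+ mouse 2 left out the 4 calls became 2, with df/+ mouse 2 left out 0, and with +/+ mouse 3 left out 6. The dp/+ sums, 2255, 2269 and 2310, lay within the +/+ range.

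Scgb1c1, a secretoglobin secreted by nasal glands, had levels of 6.30 and 5.84 in df/+ bulbs, against 8.43, 7.90 and 7.64 in +/+ bulbs. The gap between the groups was wider than the spread within either. It fell to 26.4% of the +/+ level (log2 difference -1.92, SE 0.23, adjusted p = 0.007). Its mean level was 6.07 in df/+ bulbs and 7.99 in +/+ bulbs, and in the other 3 regions of +/+ mice it averaged 5.55. Gpx6, a glutathione peroxidase found in olfactory epithelium, had levels of 6.50 and 6.02 in df/+ bulbs, against 7.81, 8.08 and 7.84 in +/+ bulbs. It fell to 31.9% (-1.65, SE 0.16, adjusted p = 0.0025). Unlike Scgb1c1, its df/+ bulb mean of 6.26 was below its +/+ means in cortex, 7.57, brain stem, 7.30, and cerebellum, 6.46.

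Bpifb4, a lipid-binding protein of the BPI fold family, had levels of 5.79 and 5.88 in df/+ bulbs, against 6.74, 6.52 and 6.68 in +/+ bulbs, and fell to 57.0% (adjusted p = 0.032). Bpifb6, a family member that lies near it on chromosome 2, had levels of 6.07 and 5.99 in df/+ bulbs, against 7.0, 6.79 and 6.67 in +/+ bulbs, and fell to 57.9% (adjusted p = 0.032). Both were dim genes, with separated groups, and as with Scgb1c1 their values near the arrays' lower quartile limit how large a fall could be measured. When p-values were adjusted over the 19908 genes outside the segment alone, 2 of the 7 outside genes still passed, Gpx6 and Scgb1c1. Both of them stayed past the threshold in all but 1 alternative, the one without df/+ mouse 2, where the adjusted p was 0.085 for Gpx6 and 0.22 for Scgb1c1.

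**Figure D2:**
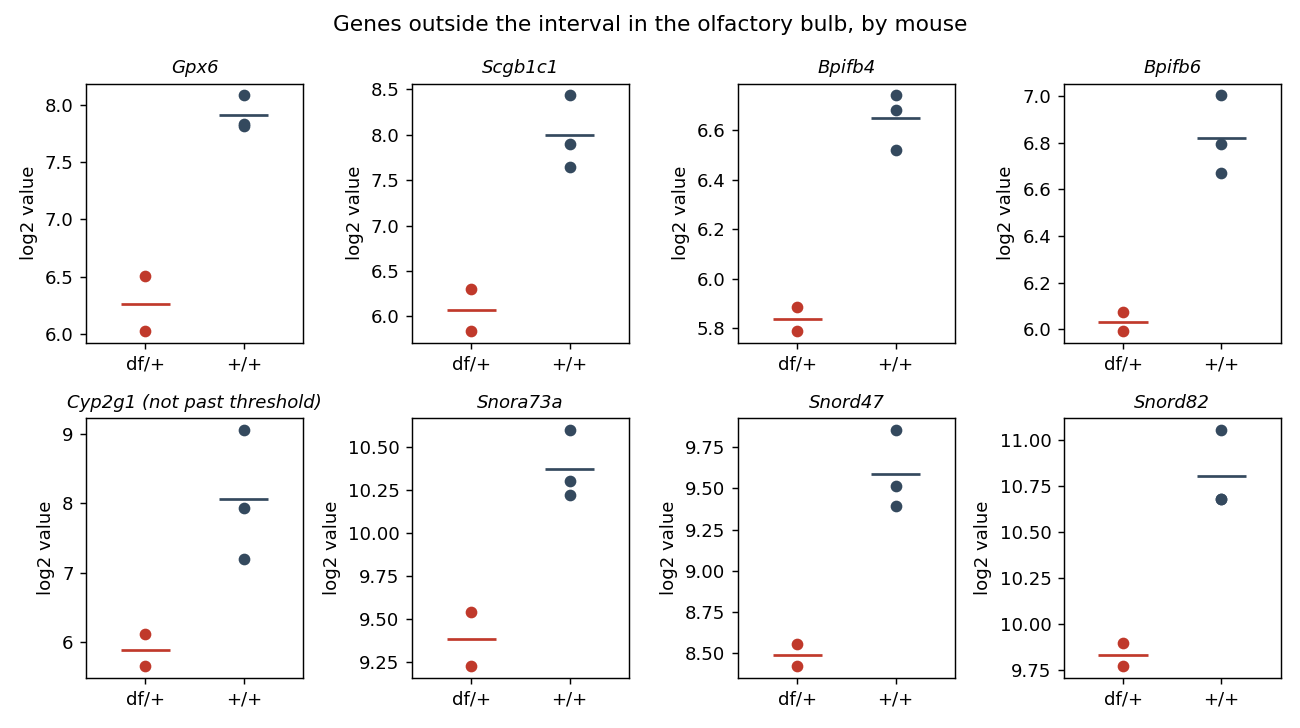
Log2 value (vertical axis, scaled per gene and not starting at 0) of the 7 genes outside the segment that fell, and of Cyp2g1, in each df/+ bulb (left, 2 mice) and each +/+ bulb (right, 3 mice). Points are mice and lines group means. In every panel both df/+ mice lie below all 3 +/+ mice, and Cyp2g1 has the widest spread among +/+ mice.

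Other enzymes of nasal mucosa had lower values that did not pass. Cyp2g1, a cytochrome P450 of olfactory epithelium, had levels of 6.12 and 5.66 in df/+ bulbs, against 7.93, 9.05 and 7.20 in +/+ bulbs. Its difference of -2.17 (SE 0.37, adjusted p = 0.066) did not pass, and its +/+ mice were widely spread. Cyp2f2, another P450, stood at 45.9% of the +/+ level, Cbr2, a carbonyl reductase, at 59.2% and Cyp1a2 at 73.5%, the last of them dim in every bulb, at 5.31 and 5.15 in df/+ bulbs, against 5.68, 5.74 and 5.58 in +/+ bulbs. The odorant-binding proteins Obp1a, Obp2a and Obp2b were low in all mice, between 4.51 and 5.96, and none of them passed. The mucin Muc5b had 6.63 and 6.61 in df/+ bulbs, against 6.99, 6.85 and 6.47 in +/+ bulbs, so that the groups overlapped. The list for meninges and collagens, whose tissue also borders the bulb, had a median of -0.10, with 0 of 14 called (0.0802% of all genes were). Of the 14, 4 were lower at an unadjusted p below 0.05, against 5.04% of all genes. Among the 4 were Bgn, a matrix proteoglycan, at -0.63 and Dcn, another, at -0.58. The part of other tissue markers in the nasal gene result was not tested.

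Transcripts of olfactory sensory neurons, whose axons end in the bulb, gave 0 calls among 17 measured (0.0802% of all genes were called), with a median of -0.22. Of the 17, 6 were lower at an unadjusted p below 0.05, against 5.04% of all genes. S100a5, a calcium-binding protein of these neurons, had levels of 10.45 and 10.97 in df/+ bulbs, against 12.25, 11.80 and 11.19 in +/+ bulbs (-1.04, adjusted p = 0.30). Stoml3, a membrane protein of their cilia, had levels of 10.82 and 11.05 in df/+ bulbs, against 12.02, 11.54 and 11.65 in +/+ bulbs (-0.80, adjusted p = 0.12). Gng13, a G protein subunit of their transduction, had levels of 9.33 and 9.47 in df/+ bulbs, against 10.80, 10.09 and 9.92 in +/+ bulbs (-0.87, adjusted p = 0.25). In these 3 genes the groups did not overlap, but Omp, the classical marker, lay between 10.31 and 11.10 in df/+ bulbs, against 10.75 to 11.24 in +/+ bulbs, and its groups overlapped. The dp/+ median for the list was -0.17 against the same +/+ bulbs. Of the 1027 olfactory receptor genes 0 were called (0.0802% of all genes were), and their median was 0.04. Most were dim, at a median percentile of 8.2 in +/+ bulb, so a fall could hardly show and these values do not tell whether receptor transcripts changed.

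The 300 bases around the starts of the 4 nasal genes that fell are given because these genes fell together, from RefSeq on GRCm38.p6 and all on the plus strand. Capitals mark CCAAT (read as ATTGG on the other strand), CCCNNGGG, the core of the site bound by the Olf/EBF family of olfactory transcription factors, and TATAA, each searched on both strands with no overlaps among the matches shown. The windows are chr7:140845315-140845614 for Scgb1c1, chr13:21311953-21312252 for Gpx6, chr2:153940612-153940911 for Bpifb4 and chr2:153900138-153900437 for Bpifb6.
Scgb1c1 promoter: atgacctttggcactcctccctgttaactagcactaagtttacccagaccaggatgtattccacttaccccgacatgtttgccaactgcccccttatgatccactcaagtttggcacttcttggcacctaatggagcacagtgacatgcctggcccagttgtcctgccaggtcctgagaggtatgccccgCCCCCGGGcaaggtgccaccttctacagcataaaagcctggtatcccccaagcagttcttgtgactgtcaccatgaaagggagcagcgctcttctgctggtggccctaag
Gpx6 promoter: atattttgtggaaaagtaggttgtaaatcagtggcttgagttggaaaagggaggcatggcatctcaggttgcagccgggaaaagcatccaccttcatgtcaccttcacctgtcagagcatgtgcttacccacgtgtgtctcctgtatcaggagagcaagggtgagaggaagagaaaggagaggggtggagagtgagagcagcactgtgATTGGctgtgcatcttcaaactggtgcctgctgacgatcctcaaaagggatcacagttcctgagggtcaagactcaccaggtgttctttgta
Bpifb4 promoter: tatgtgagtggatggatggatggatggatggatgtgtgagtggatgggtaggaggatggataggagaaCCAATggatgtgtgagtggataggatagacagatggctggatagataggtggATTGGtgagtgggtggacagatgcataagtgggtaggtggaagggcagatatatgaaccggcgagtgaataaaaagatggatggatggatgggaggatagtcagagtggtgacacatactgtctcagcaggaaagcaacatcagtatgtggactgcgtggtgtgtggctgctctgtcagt
Bpifb6 promoter: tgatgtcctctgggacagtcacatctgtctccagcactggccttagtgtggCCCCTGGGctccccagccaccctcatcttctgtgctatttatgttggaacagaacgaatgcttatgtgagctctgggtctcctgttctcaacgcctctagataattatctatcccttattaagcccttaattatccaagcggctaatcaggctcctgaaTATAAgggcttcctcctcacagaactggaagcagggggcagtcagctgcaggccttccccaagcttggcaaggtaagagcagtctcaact

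The CCCNNGGG core was present once in Scgb1c1 and once in Bpifb6, against 13.7% of all 32851 RefSeq promoter windows of that length. CCAAT was present once in Gpx6 and at 2 places in Bpifb4 (37.4% of all windows), and TATAA once in Bpifb6 (24.9%). These matches describe the letters of the windows and nothing about binding.

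Small nucleolar and Cajal body RNAs, which guide modification and cleavage of ribosomal and spliceosomal RNA, formed the other group outside the segment. Of the 54 measured, 3 fell, 28 were lower at an unadjusted p below 0.05 (against 5.04% of all genes) and 1 was higher (against 2.73%). Both df/+ samples were below every +/+ sample for 33 of them, against 14.6% of all genes. The median was -0.50 in bulb, -0.02 in cortex, -0.11 in cerebellum and -0.39 in brain stem. Snora73a, an RNA of the U17 class that acts in ribosomal RNA cleavage, had levels of 9.54 and 9.23 in df/+ bulbs, against 10.60, 10.30 and 10.22 in +/+ bulbs (50.3%, adjusted p = 0.032). Snord47, a C/D box methylation guide, had levels of 8.56 and 8.42 in df/+ bulbs, against 9.85, 9.52 and 9.39 in +/+ bulbs (46.7%, adjusted p = 0.032). Snord82, of the same class, had levels of 9.77 and 9.89 in df/+ bulbs, against 11.05, 10.68 and 10.68 in +/+ bulbs (51.0%, adjusted p = 0.044). In each the groups were apart and +/+ bulb 1 was highest.

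The +/+ mice themselves differed in these RNAs. Summed linear intensity of the list was 39902 and 36415 in df/+ bulbs, against 72399, 55581 and 46026 in +/+ bulbs. Among these 5 bulbs, +/+ bulb 1 held the highest value for 44 of the 54. The 3 calls rest on few mice: 0 of the list were called without df/+ mouse 1, df/+ mouse 2, +/+ mouse 1, +/+ mouse 2 or dp/+ mouse 2, 1 without dp/+ mouse 3 and 12 without +/+ mouse 3, which had the lowest of the +/+ sums. With quantile normalisation or cyclic loess 0 were called, and 1 with arrays centred on medians. The dp/+ bulbs had sums of 38798, 35873 and 40824, all below the 3 +/+ sums, and their median difference from the same 3 +/+ bulbs was -0.56. The part of the shared +/+ bulbs in both results was not tested.

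**Figure D3:**
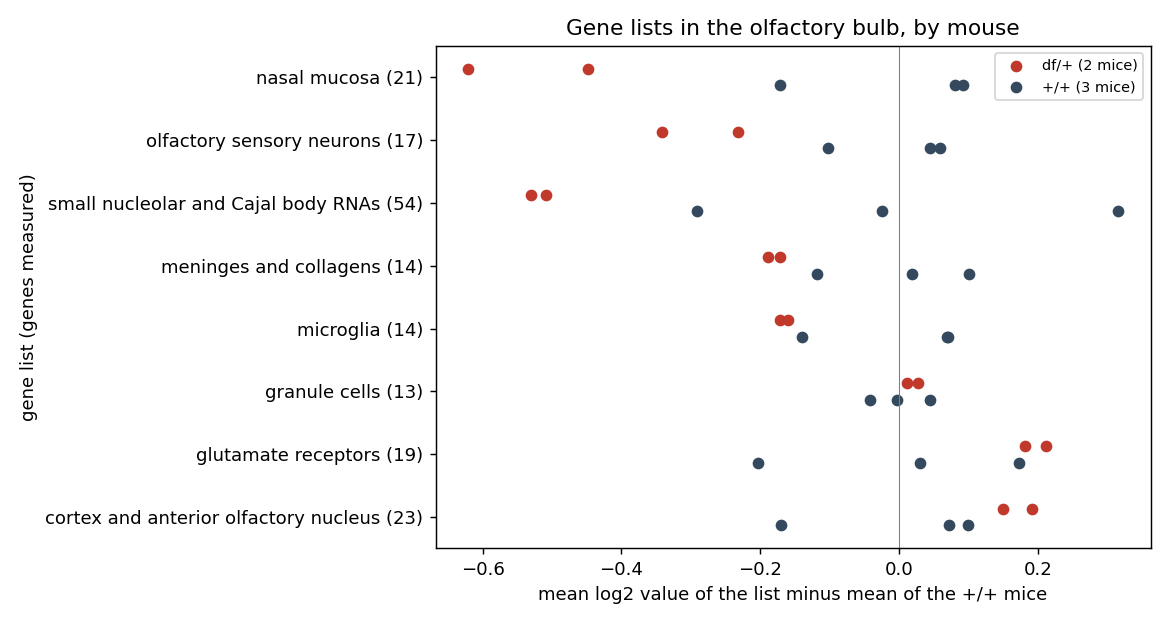
Mean log2 value of 8 gene lists in each bulb minus the mean of the 3 +/+ bulbs (horizontal axis), with df/+ mice above +/+ mice in each row and the number of genes measured in parentheses. Nasal mucosa, sensory neuron, small nucleolar RNA, meninges and microglia means lie lower in both df/+ mice than in any +/+ mouse, for microglia by a narrow gap. Granule cell means overlap, and glutamate receptor and cortical means lie slightly higher in df/+ mice.

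The bulb's own cell types gave 0 calls. Over all genes 0.0802% were called, so lists this short would likely hold 0 calls in any case. Granule cell markers had a median of 0.01 over 13 genes. Gad1 and Gad2, the enzymes of GABA synthesis, stood at 107.5% and 110.3% of the +/+ level. Neuroblast markers had a median of -0.09 over 15 genes, with Dcx, a microtubule protein of migrating neurons, at 11.53 and 11.46 in df/+ bulbs, against 11.14, 11.21 and 11.57 in +/+ bulbs. Periglomerular markers had a median of -0.11 over 11 genes, of which 10 were below 0 (54.3% of all genes were). Of the 11, 3 were lower at an unadjusted p below 0.05, against 5.04% of all genes. Among the 3, Ddc, an enzyme of dopamine synthesis, had levels of 7.12 and 7.19 in df/+ bulbs, against 7.58, 7.61 and 7.48 in +/+ bulbs (adjusted p = 0.41). Mitral and tufted cell markers had a median of 0.07 over 14 genes. At an unadjusted p below 0.05, 3 of them were higher (2.73% of all genes were) and 2 lower (5.04% of all genes were). Tbr1, a transcription factor of projection neurons, had levels of 9.07 and 9.39 in df/+ bulbs, against 8.70, 8.96 and 8.64 in +/+ bulbs (0.46, adjusted p = 0.49). The lists for astrocytes, myelin, endothelium, choroid plexus and ensheathing glia had 0 calls, with medians between -0.14 and -0.03. At an unadjusted p below 0.05, 1 of 14, 2 of 15, 0 of 11, 1 of 10 and 2 of 10 were lower in that order, and 0 higher. Microglia also had 0 calls among 14 genes, with a median of -0.14. Of the 14, 12 were below 0 (54.3% of all genes were). At an unadjusted p below 0.05, 3 were lower, against 5.04% of all genes, and 0 higher.

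Lists for other cell types and states also gave 0 calls, which at a share of 0.0802% over all genes is little guide to change. Striatal neuron markers had a median of 0.18 over 9 genes, inhibitory interneuron markers -0.04 over 13 and neuropeptides with their receptors -0.02 over 36. Among the interneuron markers Tac2, a tachykinin, had levels of 8.99 and 8.50 in df/+ bulbs, against 10.04, 9.51 and 9.44 in +/+ bulbs (-0.91, adjusted p = 0.17). Immediate early genes had a median of -0.18 over 18, with Fos, an activity-induced transcription factor, at 8.60 and 8.80 in df/+ bulbs, against 9.63, 8.82 and 8.85 in +/+ bulbs. Clock genes had a median of -0.13 over 13, glucocorticoid-responsive genes -0.24 over 10, and chaperones with cold-induced genes -0.10 over 12. At an unadjusted p below 0.05, 2, 2 and 3 of these were lower in that order, against 5.04% of all genes, and 0 higher. Of the 10 glucocorticoid-responsive genes 9 were below 0, against 54.3% of all genes. Of the 13 interneuron markers 3 were lower at an unadjusted p below 0.05 and 0 higher. Lcn2, a secreted iron-binding protein of the glucocorticoid list, had levels of 6.44 and 6.10 in df/+ bulbs, against 7.96, 7.45 and 6.81 in +/+ bulbs (-1.14, adjusted p = 0.21). The groups of Tac2 and Lcn2 did not overlap, and +/+ bulb 1 was the highest in both. GABA and glycine receptors had a median of 0.06 over 18, the endocannabinoid system -0.01 over 9, red cell genes -0.07 over 2 and vomeronasal receptors 0.02 over 167. The vomeronasal receptors were dim, at a median percentile of 3.57 in +/+ bulb, where a fall could hardly show.

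No gene rose, but several groups had values on the higher side. All 19 measured glutamate receptor genes were above 0, as were 45.7% of all genes, with a range of 0.004 to 0.37, a median of 0.17, and 4 with an unadjusted p below 0.05 (2.73% of all genes). Gria3, an AMPA receptor subunit, had levels of 11.81 and 11.80 in df/+ bulbs, against 11.40, 11.30 and 11.59 in +/+ bulbs (adjusted p = 0.45). The mean level of the 19 glutamate receptor genes was 10.62 and 10.59 in df/+ bulbs, against 10.21, 10.44 and 10.58 in +/+ bulbs, so that +/+ bulb 1 was the lowest and +/+ bulb 3 lay next to the df/+ bulbs. The dp/+ median against the same +/+ bulbs was 0.17 as well. Potassium channels had a median of 0.13 over 25 genes, also with 4 at an unadjusted p below 0.05. Their mean level was 10.10 and 10.09 in df/+ bulbs, against 9.76, 10.04 and 10.03 in +/+ bulbs, with +/+ bulb 1 alone far below the rest, and the dp/+ median was 0.10. Markers of cortical and anterior olfactory nucleus neurons had a median of 0.16 over 23 genes, among them Slc30a3, a zinc transporter of glutamatergic vesicles, at 0.40 and Neurod2, a transcription factor, at 0.29 (adjusted p = 0.43 and 0.52). For these same markers +/+ bulb 1 had the lowest mean level of the 5 bulbs, 9.46, and the dp/+ median was -0.15. Enc1, an actin-binding protein, and Mal2, a protein of vesicle traffic, stood at 0.64 and 0.80, with groups that did not overlap (adjusted p = 0.58 and 0.59). Respiratory chain subunits had 20 of 21 below 0, against 54.3% of all genes, and a median of -0.16. Their mean level was 10.85 and 10.95 in df/+ bulbs, against 11.25, 11.03 and 10.92 in +/+ bulbs, so that the groups overlapped and +/+ bulb 1 was the highest, and the dp/+ median was -0.14. The part of +/+ bulb 1 in these list values was not tested.

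Among single genes with higher values, the smallest p belonged to a probe set for the miRNA gene Mir680-1, with levels of 8.70 and 8.85 in df/+ bulbs, against 7.78, 7.62 and 8.06 in +/+ bulbs (0.96, adjusted p = 0.10). The dp/+ bulbs, at 8.78, 8.97 and 9.43, were higher than the +/+ bulbs as well. Mir128-1 had levels of 10.54 and 10.68 in df/+ bulbs, against 9.70, 9.60 and 10.17 in +/+ bulbs (0.79, adjusted p = 0.15). Mir218-1 stood at 0.76 (adjusted p = 0.22). These 3 were the miRNA genes among the 10 with the smallest p, so their mature sequences are given from RefSeq on GRCm38.p6, with the seed, bases 2 to 8, in capitals, and no 2 of them share a seed. Whether the probe sets measure the mature form or a precursor was not tested.
mmu-miR-680: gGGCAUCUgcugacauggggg
mmu-miR-128-3p: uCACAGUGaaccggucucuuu
mmu-miR-218-5p: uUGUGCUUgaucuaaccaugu

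The remaining 7 of the 10 were Gpr52, an orphan receptor, Cacna2d1, a calcium channel subunit, Cdh9, a cadherin, Prpf39, a splicing factor, Wsb1, Uggt2, a glycoprotein folding sensor, and Eml5. Their differences lay between 0.53 and 0.56, with adjusted p between 0.14 and 0.26, and both df/+ samples were above all +/+ samples in each. Cacna2d1, which is bound by gabapentin, had levels of 11.89 and 12.06 in df/+ bulbs, against 11.22, 11.47 and 11.55 in +/+ bulbs.

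Whether a difference in the bulb departed from the same difference elsewhere was tested in 1 fit of the 31 samples that allowed for regions of a mouse being alike. The bulb difference departed from the mean of cortex, cerebellum and brain stem for 29 genes (0.145%). It was more negative in bulb for 20 (0.1%) and more positive for 9 (0.0451%). All of the 20 were higher in +/+ bulb than in the other regions (limma, adjusted p below 0.05). So was 1 of the 9, against 16.2% of all genes. The +/+ means of bulb and of the other regions enter both tests, with opposite signs. These counts therefore follow in part from how the tests are built and are not a separate result. Only 1 of the 29, Gdpd3, lay in the segment, and the other 28 did not. The nasal genes Scgb1c1, Bpifb4, Bpifb6, Gpx6, Cyp2g1 and Cyp1a2 were among the 20, as were S100a5 and Postn, a matrix protein. For S100a5 and Postn, the part of their higher +/+ level in bulb in the departure was not tested. In the other 3 regions of +/+ mice Scgb1c1 averaged 5.55, Cyp2g1 5.56, Bpifb4 5.57 and Bpifb6 6.05, near or below the lower quartiles of the +/+ bulb arrays, 5.79 to 5.84. A fall of these 4 genes could hardly show there, so their departure does not tell a bulb difference from one in every region. For Gpx6, at 7.11 on average in those regions, there was room for a fall in cortex and brain stem. There was less in cerebellum, where its +/+ level was the lowest. For Gdpd3 the departure restates the +/+ levels, since its df/+ level was equally dim in all 4 regions. Of the 54 small nucleolar and Cajal body RNAs, 2 departed, both more negative in bulb. Snord82, 1 of the 2, stood at -0.97 in bulb, 0.36 in cortex, 0.39 in cerebellum and -0.16 in brain stem. Nmbr, the neuromedin B receptor, was among the 9, with levels of 9.38 and 9.87 in df/+ bulbs, against 8.66, 9.0 and 8.71 in +/+ bulbs. The count of 29 became 15 without df/+ mouse 1, 2 without df/+ mouse 2, 6 without +/+ mouse 1, 8 without +/+ mouse 2 and 203 without +/+ mouse 3.

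**Figure D4:**
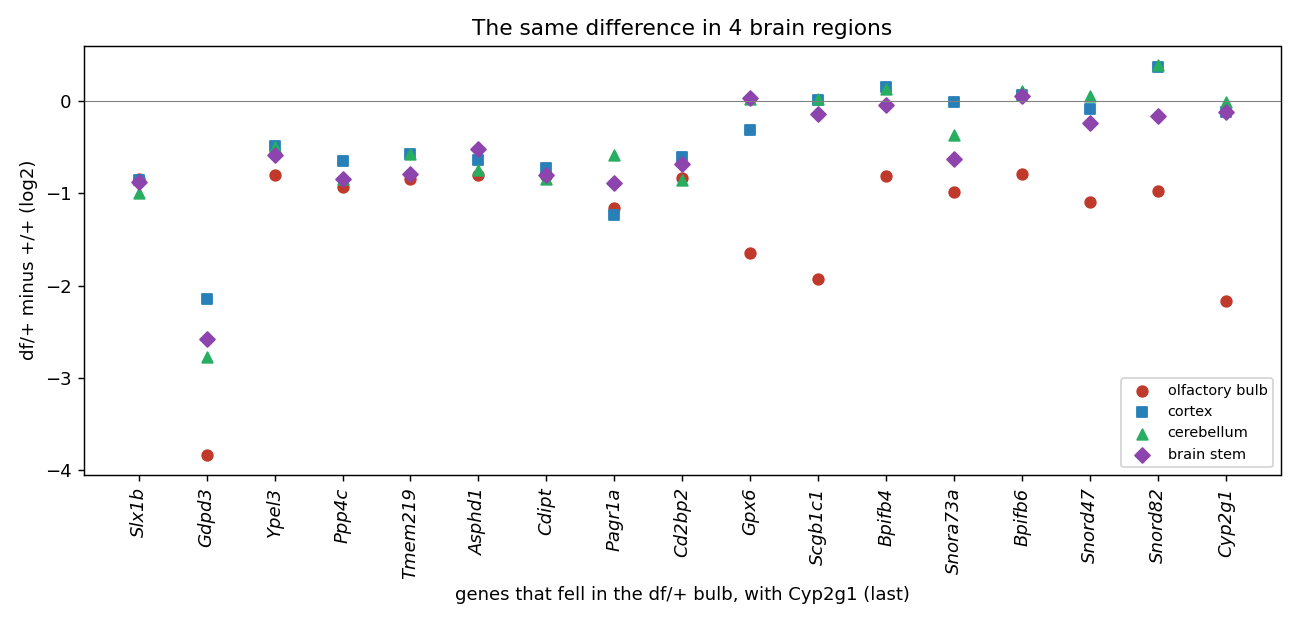
Difference df/+ minus +/+ in log2 (vertical axis) in the bulb and in cortex, cerebellum and brain stem (2 df/+ and 3 +/+ mice each) for the 16 genes that fell in the df/+ bulb and for Cyp2g1. The 9 genes of the segment, at left, lie below 0 in all 4 regions, while the 4 nasal genes and Cyp2g1 are far below 0 in the bulb and lie between -0.32 and 0.15 elsewhere, where all of them but Gpx6 are dim in +/+ mice too.

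Over the 30 genes of the segment the median difference was -0.67 in bulb, -0.54 in cortex, -0.53 in cerebellum and -0.57 in brain stem, and the difference between these medians was not tested. Kctd13, for example, stood at -0.89, -0.71, -0.76 and -0.88 in that order, and Slx1b at -0.84, -0.85, -0.99 and -0.87. Doc2a stood at -0.05 in cerebellum and at -0.72 in bulb, and its departure did not pass (adjusted p = 0.51). A fit of the bulb contrast on all 31 samples called 58 genes (0.291%), 19 of them in the segment. It held all 9 segment calls of the 8-sample fit and 5 of the 7 outside it. Of its 39 calls outside the segment, 32 were lower and 7 higher.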

How the data were processed

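RNA from 4 brain regions of 8 mice was measured on 37 Affymetrix arrays. The deposited values are log2 intensities of 35556 probe sets, which the authors made with RMA in Affymetrix Expression Console, per the submitters' processing notes. Versions are not given in the sources used here. The arrays of 1 sample were averaged, which left 31 region samples, and the mouse was the replicate. A gene took its brightest probe set among the 21789 with 1 symbol in the platform annotation (1621 had several and 12146 none), with symbols updated through RefSeq (21698 matched). That left 19938 genes. Limma 3.58.1 in R 4.3.3 was fitted to the 8 bulb samples with genotype as 3 groups, so the dp/+ bulbs add to the estimate of spread, with Benjamini-Hochberg adjustment and a threshold of 0.05. The design kept 5 residual degrees of freedom and a prior of 7.32. The interaction used the 31 region samples with mouse as a random effect (correlation 0.12). The mean of the segment was tested by exact permutation of mice.

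On simulated data for the bulb contrast over 19938 genes, 22% of log2 changes of 0.5 and 88% of log2 changes of 1 were recovered, and 6 of 116 calls were false. The simulation changed 200 genes and gave each gene independent normal noise of the same spread in every bulb. It held no sample that fitted less closely than the rest, as +/+ bulb 1 and dp/+ bulb 3 did, so these rates need not hold for the real bulbs. The 2 arrays of +/+ bulb 1 had a median SD of 0.0623 per gene, against 0.1231 between the 3 +/+ mice. Same-numbered df/+ and +/+ bulbs came from separate mice, and their deviations correlated at -0.113 and 0.041. Text names every measured gene of the segment, up to 20 genes outside it past the threshold in each direction (or the 10 with the smallest p), up to 4 of each list, and the 10 with the smallest interaction p. Other genes were named after their values were seen: Cyp2f2, Cbr2, Cyp1a2, Muc5b, the Obp genes, Omp, Cul3 and Taok1. Genes, lists and comparisons were chosen with earlier results of these data known, so a list's direction is not independent evidence.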

Additional observations from a re-analysis of the deposited data

Results flagged for a closer look

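The difference df/+ minus +/+ in the bulb, less the mean of that difference in cortex, cerebellum and brain stem, passed an adjusted p of 0.05 (limma) for 16 of the named genes. Inside the segment this was Gdpd3, at -1.337, whose df/+ level was equally dim in all 4 regions, so that this value restates its higher +/+ level in bulb. Among genes of nasal mucosa it was -2.0861 for Cyp2g1, -1.8877 for Scgb1c1, -1.5609 for Gpx6, -0.8908 for Bpifb4, -0.8673 for Bpifb6 and -0.5157 for Cyp1a2. All of these but Gpx6 were dim in the other 3 regions of +/+ mice, where a fall could hardly show. Of transcripts tied to sensory neurons it was -1.0684 for S100a5 and -0.9254 for Olfr727, an olfactory receptor gene. It was -1.1677 for the small nucleolar RNA Snord82 and -2.1407 for Gm10874, a predicted gene. Gm10874 had levels of 9.85 and 10.13 in df/+ bulbs, against 11.57, 11.06 and 10.23 in +/+ bulbs, and its difference was 1.70 in cortex. It was -0.7827 for Heyl, a Notch target, -0.7559 for Postn, a matrix protein, and -0.6602 for Sult1d1, a sulfotransferase. On the positive side it was 1.105 for Nmbr and 0.6381 for Wsb1.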

How the results depend on the processing

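The mean of the segment kept its direction in every alternative, between -0.88 (its brighter genes alone) and -0.63 (arrays centred on medians), and between -0.69 and -0.64 with 1 mouse left out. Its 9 genes that fell became 18 with array weights, 2 with df/+ and +/+ bulbs alone, 19 with all 31 region samples, and 1 to 13 with 1 mouse left out. The 7 genes outside that fell became 3 with every probe set as its own feature, 3 with quantile normalisation within the bulb, 4 with arrays centred on medians, 3 with cyclic loess, 79 with array weights, 2 with df/+ and +/+ bulbs alone, 32 with 31 samples, 2 with adjustment outside the segment alone, and 0 to 33 with 1 mouse left out. The 0 that rose became 23 with array weights, 7 with 31 samples, and 0 to 2 with 1 mouse left out. With the replicate block, which joins mice that share only a number, 15 fell and 1 rose outside the segment. The 29 interaction genes became 14 with no block for the mouse and 2 to 203 with 1 mouse left out. The cause of these shifts was not tested. Gdpd3 passed in all 19 of its alternatives, while the other 15 of the 16 called genes lost the threshold in at least 1, and none of the 16 turned direction. Direction turned for genes near 0. With the first array alone 4930451I11Rik was -0.01082 and Zg16 -0.01519, and Zg16 was -0.01654 with array weights. Leaving out 1 mouse gave -0.03358 to 0.05065 for 4930451I11Rik, -0.06469 to 0.0754 for Zg16, -0.07219 to 0.08335 for Spn, -0.03529 to 0.281 for Tshz1, -0.2343 to 0.002576 for Prss56, -0.06455 to 0.8589 for Crh and -0.2828 to 0.1943 for Alas2. With 2 df/+ mice a log2 change of 0.5 was mostly missed in the simulated data, and dim genes are limited by signal over background, which the deposited values do not give.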
